A study of Mus musculus and Homo sapiens with 34 samples.

Results

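The genes described here encode the solute carriers that move amino acids, and the neurotransmitters, osmolytes and creatine derived from or related to them, across cell membranes. They were taken from RNA sequencing counts of mouse and human lung adenocarcinoma cultures as every row whose symbol begins with Slc1a, Slc3a, Slc6a, Slc7a, Slc36a, Slc38a or Slc43a and a digit. The rule used names alone and no measured value. It found 294 of the 143438 gene rows in the 7 deposited count tables, with 33 to 54 rows per table. These rows carried 59 symbols when case is ignored, 52 of them transporters and the others antisense, opposite-strand or pseudogene entries. A filter on low counts kept 29 to 43 rows per table for testing, and the other 54 rows were too low to test. Of the 52 transporters, 45 were tested somewhere.

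These carriers work as 3 broad types. Some are antiporters built of 2 proteins, in which a light chain of the SLC7 family does the transport and a heavy chain, SLC3A2 (also called CD98hc) or SLC3A1, brings it to the membrane. Such antiporters swap 1 amino acid for another, so they set which amino acids are exchanged. Other carriers, among them the SLC1 and SLC6 families, use the sodium gradient to concentrate their substrates, and the SLC38 and SLC36 families load glutamine and small neutral amino acids or let them out of lysosomes. Tumour cells are known to rely on import of leucine, glutamine, cystine and arginine, and several of these genes are known targets of ATF4, the transcription factor that answers amino acid shortage.

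The study compared 17 groups of 2 replicates. The 3154 organoids carry p53frt and Rosa-FSF-CreERT2 together with floxed Hnf4a, so 4-hydroxytamoxifen (4OHT) can delete Hnf4a through the Cre fusion. They were given 2 mM 4OHT or ethanol for 2 days and harvested 2 weeks later. In a separate experiment labelled 48 h, they received ethanol or 4OHT, each with vehicle or 3 nM MRTX1133, a small-molecule inhibitor. The 1027B organoids and the 3311 cell line carry the same p53 and Cre alleles with floxed Foxa1 and Foxa2 in all their groups, and no treatment that deletes Foxa1 or Foxa2 is named. For 48 h, 1027B received vehicle, 10 nM trametinib (a MEK inhibitor) or 20 nM MRTX1133, and 3311 received vehicle or 50 nM trametinib. Trametinib at 20 nM or vehicle was given for 48 h to H358 and to H1651, both human lung adenocarcinoma lines. H1651 with a lentiviral HNF4α construct was also given 1 μg/mL doxycycline or none for 7 days. HNF4α is a transcription factor of liver and gut identity. Nothing in the labels says whether replicates are separate cultures, so p values measure only the spread between these libraries, and the labels do not say whether a line is 1 clone.

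Each library held 19692517 to 45284286 counts. Levels are given as CPM, read counts scaled by TMM library totals, always as replicate 1 and then replicate 2. Differences are log2 fold changes ± SE with Benjamini-Hochberg adjusted p values over all genes of a table, from edgeR's quasi-likelihood test, with 0.05 as the limit below which a gene counts as called. The deletion checked as labelled: Hnf4a measured 315 and 427 CPM with ethanol and 53.5 and 67.96 CPM with 4OHT at 2 weeks, and 221 and 230.1 against 49.4 and 50.4 CPM at 48 h. HNF4A rose from 47.1 and 35.9 to 94.4 and 96.8 CPM with doxycycline, and it had 0 counts in every H358 library. Summed CPM of 10 ERK output genes was lower with trametinib in each line, from 1885 and 2170 to 423 and 583 in 3311 and from 386 and 519 to 157 and 201 in H1651. All 6 lung epithelial markers were detected in every table. Of 8 fibroblast markers the mouse tables list 1 to 5, which summed to 26.25 CPM or less in every mouse library. In the human tables all 8 are listed and summed to 41.2 to 50.0 CPM in H358 vehicle, 246 to 349 CPM with trametinib there, and 413 to 759 CPM in H1651.

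Of the 45 transporters tested, 32 were called in at least 1 of the 11 comparisons with a matching vehicle, or 71.1%. Of all 24746 gene symbols tested, case ignored, 59.0% were called at least once. Genes tested in every comparison were called more often, 20 of 20 transporters and 82.1% of 9586 symbols. Of the 32, 13 were only ever called higher, 10 only ever lower, and 9 went up in some comparisons and down in others. The calls came to 107, 49 of them rises and 58 falls. In bulk RNA, fewer cells of a type and less RNA per cell cannot be told apart. Of the 109 called values, which include 2 antisense or opposite-strand rows, 59 stayed past the threshold under every alternative that gave them a value. The alternatives kept all libraries or dropped single ones.

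**Figure D1:**
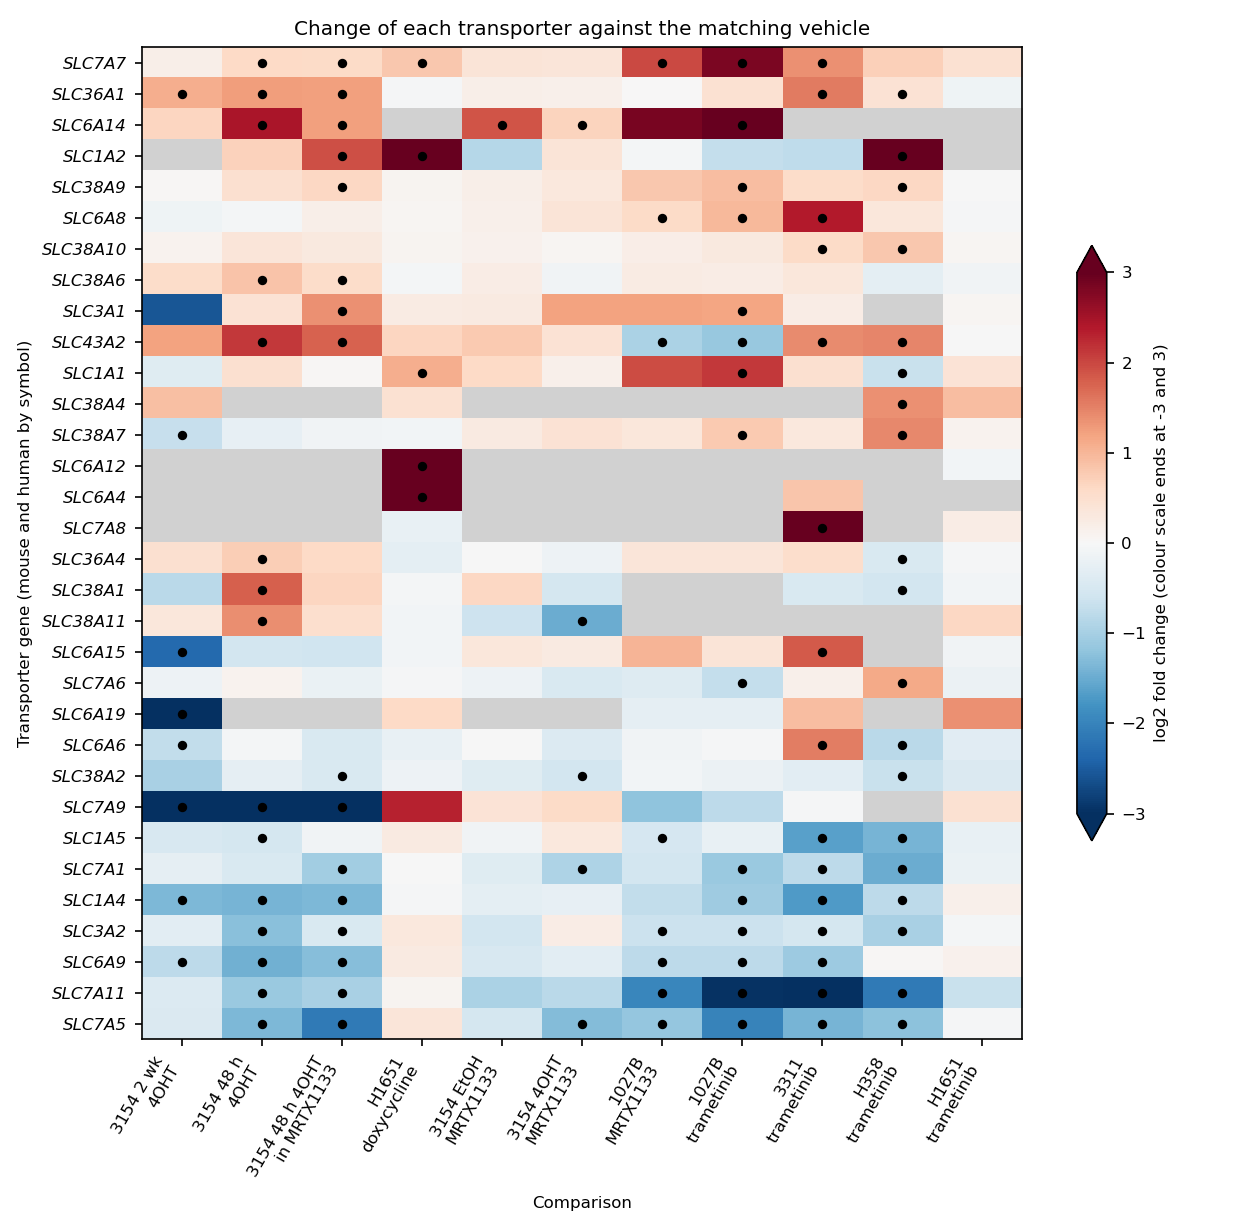
Log2 fold change of every transporter called in at least 1 comparison (rows) in each of the 11 comparisons with a matching vehicle (columns). Red is higher and blue lower than vehicle, the colour scale ends at -3 and 3, black dots mark calls at adjusted p under 0.05, and grey cells were not listed or not tested. SLC7A5, SLC7A11, SLC3A2 and SLC1A4 form a blue band at the bottom, and SLC7A7 and SLC36A1 a red band at the top.

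Deletion of Hnf4a gave calls in both 3154 experiments. At 2 weeks, 8 of 33 tested rows were called, which is 24.2% beside 9.81% of all 14492 genes tested. They were 1 call higher (4.03% of all genes) and 7 lower (5.78% of all genes). At 48 h without inhibitor, 15 of 30 were called, or 50.0% beside 31.0% of all genes, with 8 higher (15.3% of all genes) and 7 lower (15.7%). With MRTX1133 in both arms, deletion gave 16 calls among the 30 rows, or 53.3% beside 27.7%, with 8 higher (13.2% of all genes) and 8 lower (14.5%). The median log2 change of the tested rows was -0.20 at 2 weeks, 0.23 at 48 h and 0.12 at 48 h with MRTX1133, against medians of 0.02, 0.01 and -0.01 over all genes. At 2 weeks the immune markers, 4 of 6 of them listed, summed to 18.6 and 44.7 CPM with ethanol and 10.1 and 13.5 CPM with 4OHT, with Csf1r called lower. The 3 listed of 4 endothelial markers went from 5.93 and 5.08 to 2.17 and 2.55 CPM, with Pecam1 called lower, and the part of either list in the changes was not tested. The 2 comparisons at 48 h use different libraries on both sides, whereas each shares an arm with an MRTX1133 comparison below.

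Trametinib gave calls in 3 of the 4 lines. In 3311, 16 of 33 rows were called, which is 48.5% beside 39.0% of all genes, with 8 higher (19.4% of all genes) and 8 lower (19.6%). In 1027B, 15 of 30 were called, or 50.0% beside 26.7%, with 7 higher (13.5% of all genes) and 8 lower (13.2%). In H358, 20 of 29 were called, or 69.0% beside 46.8%, with 8 higher (23.5% of all genes) and 12 lower (23.2%). In H1651 none of 43 rows was called by edgeR's quasi-likelihood test without a replicate block, beside 0.0% of all genes. In that fit 5 rows had an unadjusted p under 0.05, and DESeq2 made 1 call. With the block 11 rows were called, beside 10.3% of all genes. Median log2 changes of the tested rows were 0.34, 0.09, -0.30 and -0.01 in that order, against 0.01, -0.01, 0.02 and -0.0027 over all genes. In 3311 the lung epithelial markers summed to 5620 and 6431 CPM in vehicle and 3900 and 4774 CPM with trametinib. The 3 listed of 6 immune markers summed there to 9.55 and 15.7 and then 21.8 and 28.6 CPM, with Csf1r called higher and Cd68 lower, and the part of either list was not tested. In 1027B, 3 of 4 gastrointestinal markers are listed, and they summed to 573 and 585 CPM in vehicle, 330 and 278 with trametinib and 404.9 and 324 with MRTX1133. Hnf4a and Vil1 were called lower there with trametinib and Hnf4a with MRTX1133, and their part was not tested. In H358, 4 of the 8 fibroblast markers (DCN, COL1A1, LUM and COL3A1) were called higher with trametinib and none lower, with DCN at 0 counts in vehicle. The 4 endothelial markers went there from 12.1 and 14.4 to 21.1 and 21.2 CPM, with CDH5 called higher. The 5 listed of 6 immune markers went from 1.94 and 1.70 to 2.21 and 1.81 CPM, with PTPRC called higher. The part of these lists in the transporter changes in H358 was not tested.

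MRTX1133 gave fewer calls, at doses that differ between the models. At 20 nM in 1027B, 8 of 30 rows were called, or 26.7% beside 6.27% of all genes, with 2 higher (3.01% of all genes) and 6 lower (3.26%). At 3 nM in 3154, 1 of 30 rows was called in ethanol-treated organoids, a rise, or 3.33% beside 0.349%, with 0.317% of all genes called higher and 0.0323% lower. In 4OHT-treated organoids 5 of 30 were called, or 16.7% beside 4.64%, with 1 higher (2.1% of all genes) and 4 lower (2.54%). At that dose the ERK output genes summed to 1437 and 1496 CPM with ethanol and 1213 and 1426 CPM with ethanol and MRTX1133, with 0 of 10 called by edgeR and a median log2 change of -0.23. After 4OHT they summed to 1719 and 1773 CPM and, with MRTX1133, 1299 and 1442 CPM, with 3 of 10 lower. The interaction of deletion and MRTX1133 gave no call by edgeR among the rows, beside 0.0% of all genes, with 3 rows at an unadjusted p under 0.05 and 1 call by DESeq2. Doxycycline induction of HNF4A in H1651 gave 5 calls among 42 rows, or 11.9% beside 1.42%, all of them higher, where 1.04% of all genes were called higher and 0.386% lower. In all 10 comparisons with any call the share of transporter rows was above that of all genes, and no test of these shares was made.

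**Figure D2:**
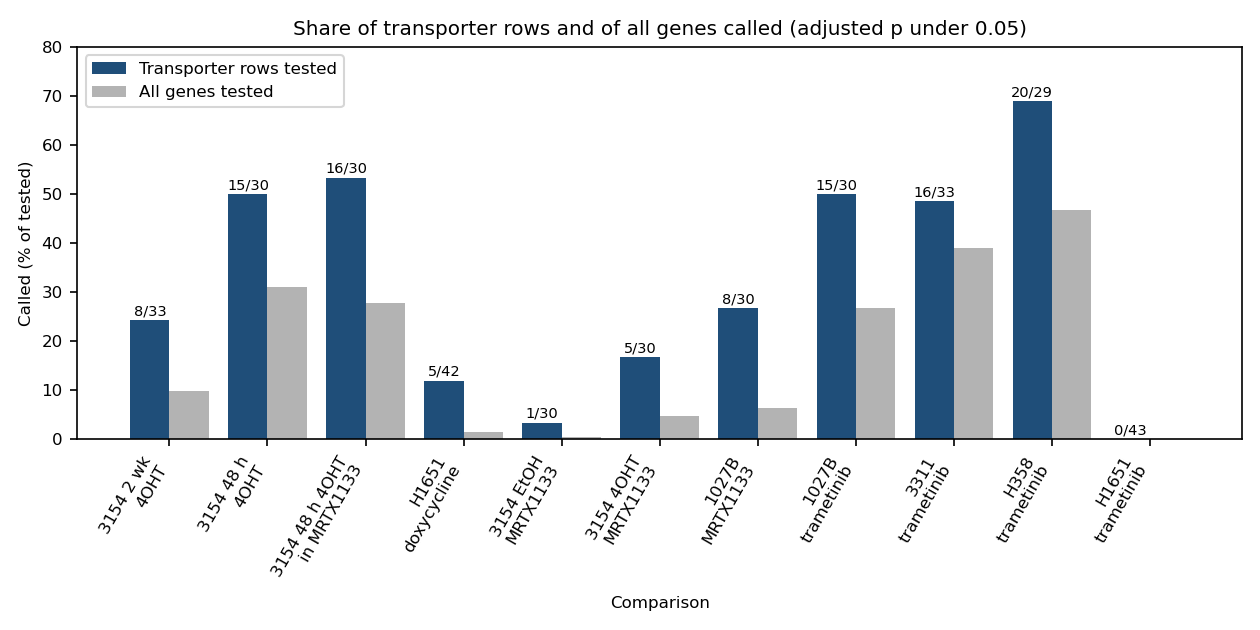
Share of tested transporter rows called (blue, with counts above the bars) beside the share of all genes called (grey) in each comparison, in percent of those tested. The blue bar is the taller of the pair wherever any gene was called, from 3.33% beside 0.349% for MRTX1133 in ethanol-treated 3154 to 69.0% beside 46.8% for trametinib in H358.

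SLC3A2 and 3 of its light chains were each called in 6 or 7 comparisons, as were SLC1A4, SLC43A2 and SLC6A9 in 6. Slc7a5 encodes LAT1, the light chain that brings in leucine and other large neutral amino acids (chr8:121881150-121907694, minus strand, GRCm38). It fell in 7 of the 11 comparisons, more often than any other transporter. In 3311 it measured 83.2 and 98.5 CPM in vehicle and 31.3 and 37.5 CPM with trametinib, a log2 change of -1.40 ± 0.16 (adjusted p = 0.00128). In 1027B, levels were 135 and 141 CPM in vehicle, 26.2 and 42.7 CPM with trametinib and 49.5 and 72.9 CPM with MRTX1133, changes of -2.00 ± 0.26 (adjusted p = 0.00355) and -1.17 ± 0.26 (adjusted p = 0.0468). Both inhibitors thus left every treated library below every vehicle library. In H358, SLC7A5 fell from 1104 and 1227 to 468 and 520.1 CPM, a change of -1.24 ± 0.11 (adjusted p = 9.86e-05).

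The same gene showed graded levels in the 48 h experiment on 3154. Slc7a5 measured 232 and 218 CPM with ethanol, 168 and 145 CPM with ethanol and MRTX1133, 91.96 and 83.6 CPM with 4OHT, and 32.9 and 38.7 CPM with both. No library of one group reached into the next. Deletion changed it by -1.36 ± 0.14 (adjusted p = 0.000643) without inhibitor and by -2.13 ± 0.15 (adjusted p = 0.000161) with MRTX1133. MRTX1133 changed it by -1.29 ± 0.14 (adjusted p = 0.0131) after 4OHT, while the value after ethanol, -0.52 ± 0.14 (adjusted p = 0.21), did not pass. The interaction of the 2 treatments was -0.77 ± 0.20 (adjusted p = 0.541). At 2 weeks the groups overlapped, at 89.9 and 49.99 CPM with ethanol and 65.6 and 37.3 CPM with 4OHT (-0.44 ± 0.37, adjusted p = 0.464). With the replicate number as a block, edgeR called that fall, at -0.44 ± 0.10 (adjusted p = 0.0162). H1651 libraries overlapped too, at 429 and 648 CPM in vehicle and 419.5 and 638 CPM with trametinib for SLC7A5. With doxycycline SLC7A5 went from 697 and 783 to 909 and 985 CPM (0.36 ± 0.08, adjusted p = 0.115), which DESeq2 called with an adjusted p of 0.0219. Of its 7 calls, 5 held under every alternative, and those for MRTX1133 were each lost when any of 4 libraries was left out.

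Slc7a11 encodes xCT, the light chain that imports cystine in exchange for glutamate and so feeds glutathione synthesis (chr3:49892526-50443614, minus strand). Its fall was the largest of any called transporter with trametinib in 3311, 1027B and H358 and with MRTX1133 in 1027B. In 3311 it dropped from 58.9 and 60.8 to 4.88 and 8.03 CPM, a change of -3.21 ± 0.25 (adjusted p = 0.000437). In 1027B it went from 281 and 347 CPM to 36.2 and 43.9 CPM with trametinib (-2.97 ± 0.16, adjusted p = 0.000434) and to 74.9 and 86.7 CPM with MRTX1133 (-1.96 ± 0.16, adjusted p = 0.00365). Human SLC7A11 in H358 fell from 67.8 and 68.5 to 14.8 and 16.8 CPM (-2.11 ± 0.12, adjusted p = 1.55e-05). Treated and vehicle libraries were far apart in each of these lines. An antisense row, SLC7A11-AS1, also changed in H358, by -1.66 ± 0.49 (adjusted p = 0.0239), on 19 and 17 counts in vehicle and 5 and 6 with trametinib, a call lost in DESeq2 and without either vehicle library or trametinib replicate 1. The strand setting of the counting is not given in the sources used here, so reads of SLC7A11 and of its antisense partner cannot be told apart.

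In 3154 at 48 h, Slc7a11 measured 229 and 148 CPM with ethanol, 105 and 89.5 CPM with ethanol and MRTX1133, 90.6 and 84.5 CPM with 4OHT and 41.8 and 57.7 CPM with both. Deletion changed it by -1.11 ± 0.23 (adjusted p = 0.00984) and, with MRTX1133 present, by -0.97 ± 0.23 (adjusted p = 0.0185). The ethanol vehicle pair was itself spread widely, and the values for MRTX1133 after ethanol and after 4OHT, -0.95 ± 0.23 (adjusted p = 0.168) and -0.81 ± 0.23 (adjusted p = 0.094), did not pass in edgeR. DESeq2 called both, with adjusted p values of 0.013 and 0.026. Both deletion calls were lost when either of 2 libraries was left out. They are the 4OHT vehicle libraries for the first and ethanol with MRTX1133 replicate 1 or 4OHT with MRTX1133 replicate 1 for the second, with changes from -1.39 to -0.77 and from -1.22 to -0.75. At 2 weeks Slc7a11 was 101 and 69.1 against 67.9 and 59.3 CPM (-0.42 ± 0.21, adjusted p = 0.248). In H1651, SLC7A11 measured 182 and 226 CPM in vehicle and 129 and 129 CPM with trametinib (-0.67 ± 0.13, adjusted p = 0.999). DESeq2 called that fall with an adjusted p of 0.0272. With the replicate number as a block, edgeR called SLC7A11 lower too, at -0.66 ± 0.06 (adjusted p = 2.4e-12). It read 252 and 229 CPM without and 278 and 228 CPM with doxycycline.

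Slc3a2, the heavy chain that all of these light chains need (chr19:8706882-8723369, minus strand), fell in 6 comparisons, and the difference in size from the falls of its light chains was not tested. It measured 142 and 149.8 CPM in 3311 vehicle and 98.8 and 103 CPM with trametinib (-0.53 ± 0.13, adjusted p = 0.0172). In 1027B it was 208 and 205 CPM in vehicle, 129.9 and 134 CPM with trametinib and 132 and 131 CPM with MRTX1133, changes of -0.64 ± 0.09 (adjusted p = 0.00385) and -0.65 ± 0.09 (adjusted p = 0.013). SLC3A2 in H358 fell from 412 and 412 to 205 and 216 CPM (-0.97 ± 0.10, adjusted p = 0.000164). In 3154 at 48 h, Slc3a2 read 446 and 378 CPM with ethanol, 302 and 256 with ethanol and MRTX1133, 167 and 176 with 4OHT and 212 and 191 with both. MRTX1133 after ethanol changed it by -0.56 ± 0.14 (adjusted p = 0.183), without overlap, which DESeq2 called with an adjusted p of 0.0388 and edgeR did not. Deletion changed it by -1.26 ± 0.14 (adjusted p = 0.000887) without and -0.47 ± 0.14 (adjusted p = 0.0411) with the inhibitor. The interaction was 0.79 ± 0.20 (adjusted p = 0.541). At 2 weeks it read 221 and 191 against 176 and 156 CPM (-0.32 ± 0.14, adjusted p = 0.197). In H1651, SLC3A2 read 265 and 339 CPM in vehicle, 257 and 322 with trametinib, 312 and 346 without doxycycline and 380.4 and 439.7 with it, and neither comparison passed. Of the 6 calls, 3 held under every alternative. The second deletion call did not pass with RLE size factors or a filter of 10 counts in every library and was lost without any of 5 libraries. The MRTX1133 call in 1027B was lost without any of 4 libraries, and the 3311 call was lost without either trametinib library.

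Slc7a7 moved the other way. It encodes y+LAT1, a light chain that exports arginine and lysine in exchange for neutral amino acids, and it uses the same heavy chain (chr14:54369442-54417780, minus strand). It rose in 6 of the 11 comparisons and fell in none. In 1027B it measured 6.10 and 5.09 CPM in vehicle, 47.3 and 32.5 CPM with trametinib and 21.5 and 22.6 CPM with MRTX1133, changes of 2.83 ± 0.22 (adjusted p = 0.00083) and 1.97 ± 0.22 (adjusted p = 0.00848). In 3311 it rose from 27.7 and 32.5 to 74.9 and 81.6 CPM (1.38 ± 0.15, adjusted p = 0.00107). Every treated library in both lines was above every vehicle library. With doxycycline, SLC7A7 in H1651 rose from 52.6 and 43.1 to 86.6 and 81.4 CPM (0.81 ± 0.11, adjusted p = 0.0186). At 48 h in 3154 it read 49.01 and 57.7 CPM with ethanol, 67.6 and 71.8 with ethanol and MRTX1133, 81.9 and 79.7 with 4OHT and 108 and 99.2 with both, so the 4 groups were ordered without overlap. Deletion changed it by 0.60 ± 0.13 (adjusted p = 0.0116) and, with the inhibitor, by 0.57 ± 0.13 (adjusted p = 0.0151). The first of these was lost without either 4OHT vehicle library and the second without any of 4 libraries. HNF4A was raised in 1 experiment and Hnf4a removed in the others, and this gene was called higher in both. At 2 weeks the groups overlapped, at 61.8 and 42.2 and 63.6 and 53.98 CPM. SLC7A7 was near 1 CPM or below in H358 (0.751 and 0.448 in vehicle, 0.988 and 1.02 with trametinib). In the H1651 trametinib experiment it read 71.2 and 57.2 in vehicle and 94.6 and 81.4 CPM with the drug (0.45 ± 0.14, adjusted p = 0.999). With the replicate number as a block, edgeR called that rise, at 0.46 ± 0.06 (adjusted p = 3.35e-08).

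Per kilobase of exon, the mix of light chains available to Slc3a2 shifted with trametinib in 3311 and 1027B and on deletion at 48 h. Shares were taken over Slc7a5, Slc7a6, Slc7a7, Slc7a8 and Slc7a11, using CPM per kilobase of GENCODE exon. In 3311 the share of Slc7a7 was 19.5% and 20.8% in vehicle and 57.6% and 56.4% with trametinib, while that of Slc7a5 went from 52.4% and 56.4% to 21.6% and 23.1%. In 1027B, Slc7a7 held 2.12% and 1.79% in vehicle, 36.3% and 24.7% with trametinib, and 13.9% and 13.8% with MRTX1133. Slc7a11 there held 23.2% and 29.1% in vehicle and 6.62% and 7.96% with trametinib. In 3154 at 48 h, Slc7a7 held 12.8% and 16.6% with ethanol, 31.8% and 32.7% with 4OHT, and 54.7% and 49.7% with 4OHT and MRTX1133. At 2 weeks Slc7a7 held 28.5% and 28.3% with ethanol and 35.2% and 37.05% with 4OHT, and the Slc7a5 shares overlapped, at 37.1% and 29.97% against 32.5% and 22.9%. The summed light chains per Slc3a2 went from 1.06 and 1.11 to 1.40 and 1.49 in 3311 and from 1.47 and 1.48 to 1.07 and 1.04 in 1027B, so the ratio moved in opposite directions under the same drug. RNA levels do not show which dimers form.

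**Figure D3:**
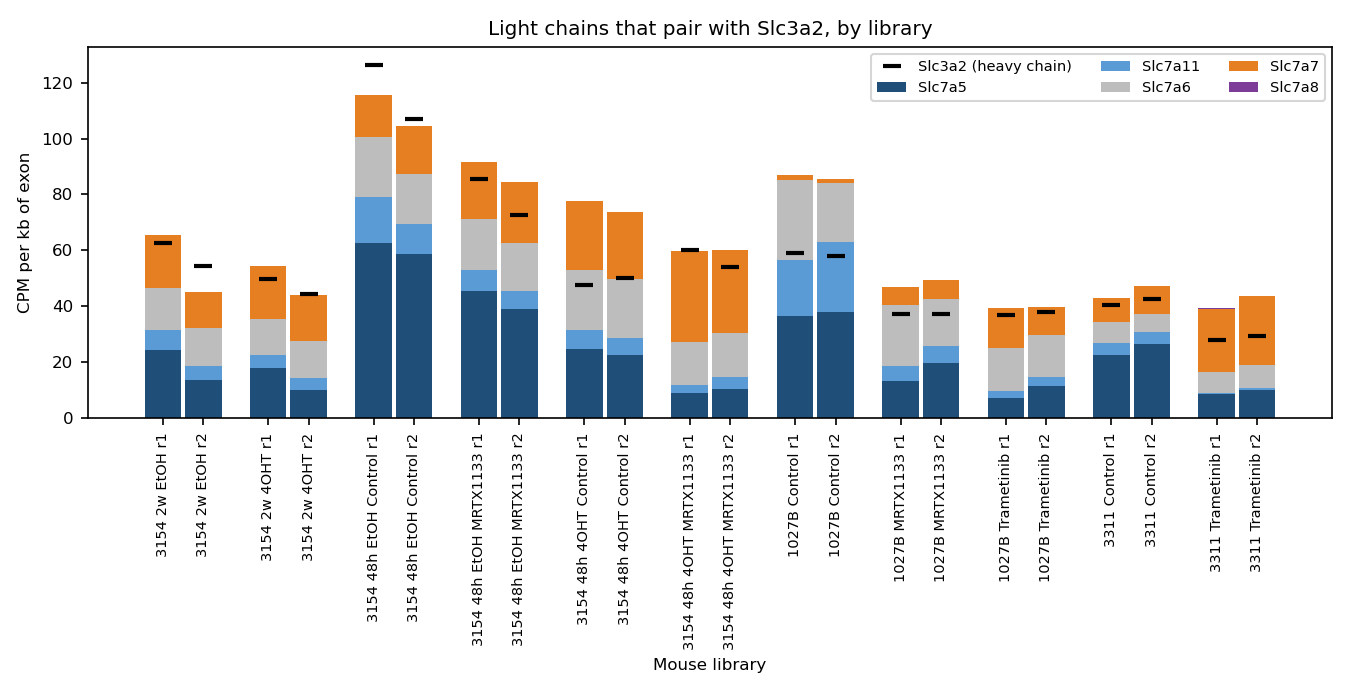
Stacked levels of the light chains that pair with Slc3a2 in each mouse library, in CPM per kilobase of exon, with the level of Slc3a2 itself as a black bar. The orange block (Slc7a7) grows and the dark blue (Slc7a5) and light blue (Slc7a11) blocks shrink with trametinib in 3311 and 1027B, and with 4OHT in 3154 at 48 h.

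Calls of the other light chains for Slc3a2 were fewer. Slc7a6 encodes y+LAT2, a close relative of y+LAT1. It fell in 1027B with trametinib, from 130.2 and 97.3 to 70.2 and 69.3 CPM (-0.70 ± 0.18, adjusted p = 0.0279), a call lost without any of 3 libraries. SLC7A6 rose in H358, from 37.99 and 42.8 to 81.8 and 96.3 CPM (1.14 ± 0.13, adjusted p = 0.000249). Slc7a8, which encodes LAT2, was barely detected in 3311, with 1 and 1 counts in vehicle and 15 and 26 with trametinib. Its ratio of 19.7 had a 95% counting interval of 5.11 to 168, which covers counting error only, as do the other counting intervals given here. The call was lost without vehicle replicate 1 or trametinib replicate 2. Slc7a6os, an opposite-strand row beside Slc7a6, changed in 3311 by -0.52 ± 0.16 (adjusted p = 0.0416), a call lost without any of 3 libraries.

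**Figure D4:**
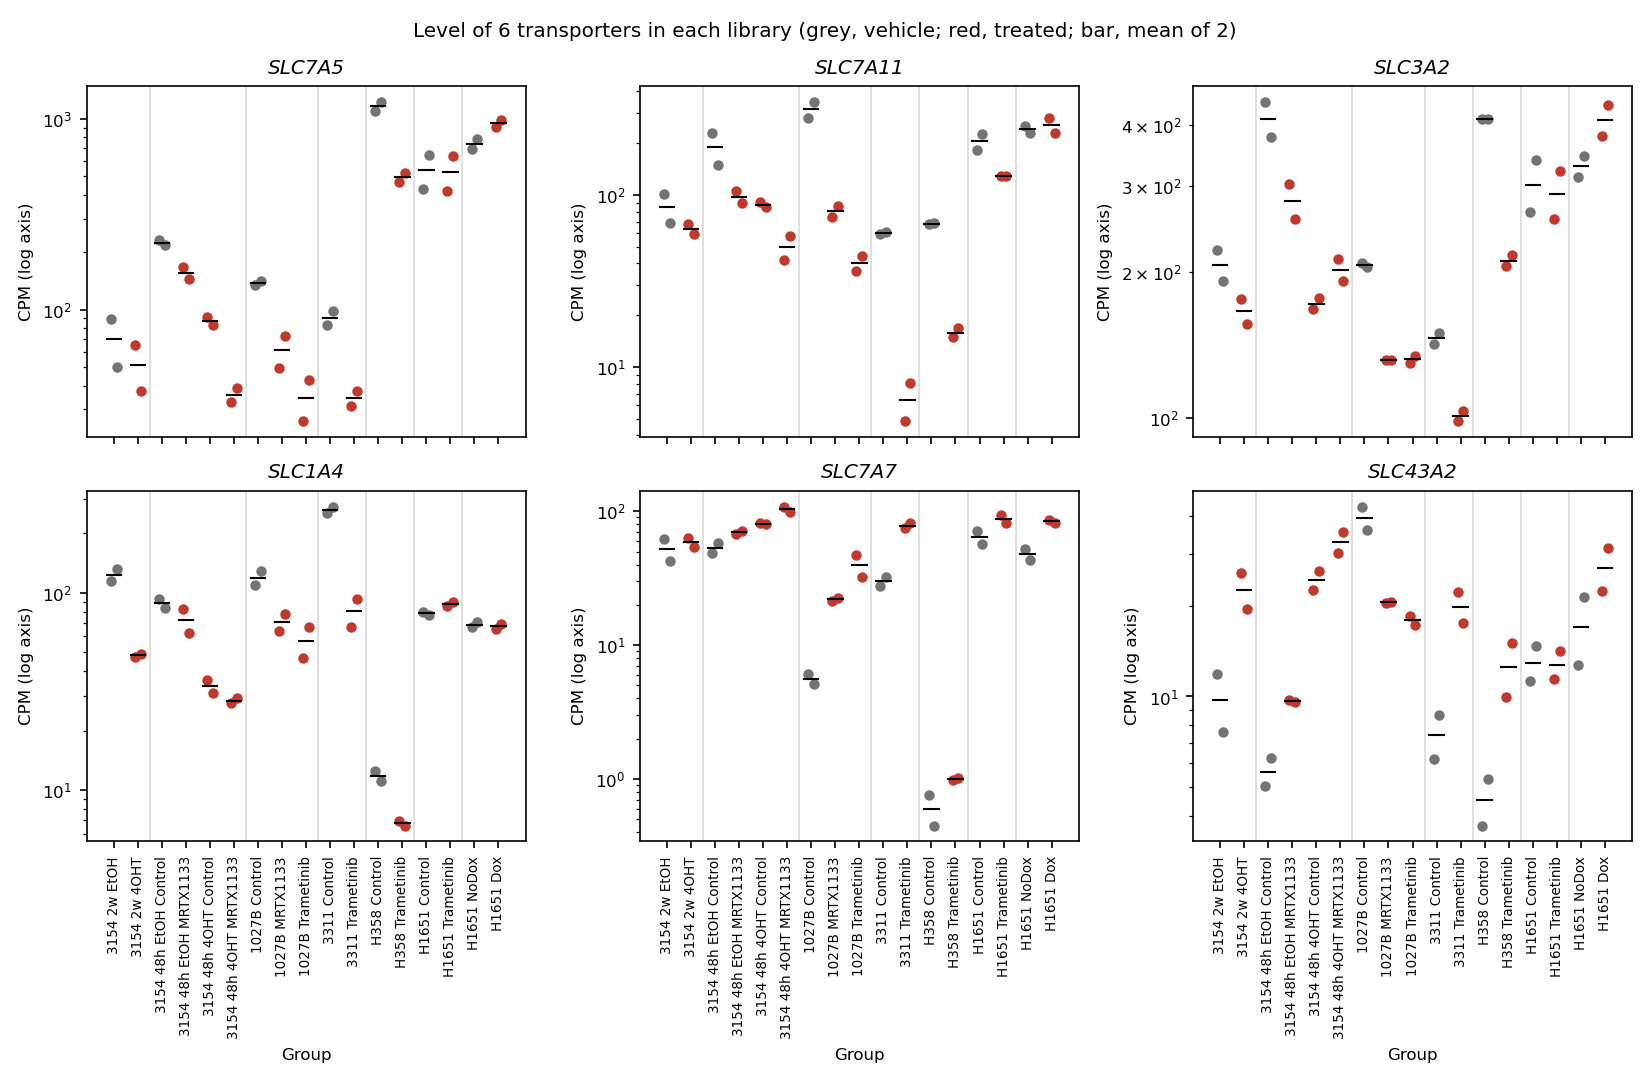
Levels of 6 transporters in every library, in CPM on log axes, with grey for vehicle, red for treated and a bar at the mean of 2. Grey vertical lines part the 7 tables, which were scaled separately, so levels compare only within the space between 2 of these lines. SLC7A5, SLC7A11, SLC3A2 and SLC1A4 sit lower in red than in grey in 3311, 1027B and H358, SLC7A7 sits higher in 3311 and 1027B, and SLC43A2 goes up in some lines and down in 1027B.

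Promoter letters were read for these genes because ATF4 binds the amino acid response element, written TGATGNAA here and TTNCATCA on the other strand. RefSeq promoters (GRCm38.p6, 250 bases before to 50 after a start) were found for 49 mouse genes of these families, in 70 windows, and Slc7a5 was not among them. The element was found in 4 of 49 genes, 8.16%, beside 4.51% of all 27025 genes with a promoter. Slc7a11 holds it on both strands. The sequences below run 5′ to 3′ on the gene's strand, with the matches in capitals. They lie at chr3:50443643-50443689 for Slc7a11, chr11:20332710-20332737 for Slc1a4, and chr14:54417928-54417952 and chr14:54418068-54418095 for Slc7a7, all on the minus strand. Both Slc7a7 matches lie in 1 window, and the first lies also in an overlapping one.
Slc7a11: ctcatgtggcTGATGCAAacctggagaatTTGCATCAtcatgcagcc
Slc1a4: cctccagcgtgcctcctgcgTTGCATCA
Slc7a7, first match: tagaagcTGATGCAAcagcttcccc
Slc7a7, second match: cgcttgggctTGATGAAAggttcactgg
Slc7a11 and Slc1a4 fell in 6 comparisons each and Slc7a7 rose in 6, so the letters stood beside genes that moved in either direction. The other match was in Slc6a21, whose level was not analysed here. The AP-1 element, TGANTCA, was also searched and was found in 9 of 49 genes, 18.4% beside 8.97% of all genes. They include Slc7a1, Slc6a14 and Slc3a1. The antioxidant response element, TGANNNNGC, was found in 30 of 49, 61.2% beside 45.0%. Slc7a11, Slc1a4 and Slc7a7 are among the latter. A match is a run of letters and was not tested for binding.

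Slc7a9 and Slc3a1 form the other heterodimer, the cystine and dibasic amino acid carrier known from the brush border of kidney and gut. Slc7a9 (chr7:35448796-35466036, plus strand) fell in all 3 comparisons that deleted Hnf4a. At 2 weeks it had 190 and 212 counts with ethanol (6.26 and 9.52 CPM) and 0 and 0 counts with 4OHT, which is at least 74.8-fold lower against a floor of 3 counts per library (adjusted p = 0.00771). At 48 h it had 50 and 91 counts with ethanol and 3 and 0 with 4OHT, 48.1-fold lower with a 95% counting interval of 16.1 to 236. With MRTX1133 in both arms it had 61 and 137 and then 4 and 1 counts, 41.6-fold lower with an interval of 17.5 to 129. In each experiment the deleted libraries held a handful of counts at most. All 3 calls held under every alternative that gave a value, which the filter of 10 counts in every library did not. In H1651, SLC7A9 had 5 and 6 counts without and 34 and 19 with doxycycline (2.30 ± 0.48, adjusted p = 0.0841), which did not pass. In 1027B and 3311, where Hnf4a was not deleted, Slc7a9 read 2.13 and 2.38 CPM in 1027B vehicle and 7.21 and 17.4 CPM in 3311 vehicle, and no inhibitor changed it past the threshold.

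For the heavy chain of this pair the tools differed. Slc3a1 (chr17:85028376-85064236, plus strand) read 1.81 and 8.71 CPM with ethanol and 0.558 and 1.20 CPM with 4OHT at 2 weeks (-2.58 ± 0.83, adjusted p = 0.11) with the 2 ethanol libraries far apart. DESeq2 called that fall, with an adjusted p of 0.0098 and a change of -2.60. At 48 h with MRTX1133 it rose on deletion, from 17 and 13 to 33 and 49 counts (1.37 ± 0.34, adjusted p = 0.0197). In 1027B it rose with trametinib from 1.26 and 1.14 to 3.12 and 2.33 CPM (1.18 ± 0.32, adjusted p = 0.0363). Neither rise held when single libraries were left out, and 26.5% of the exon bases of Slc3a1 lie opposite Prepl. Slc3a1 was the 1 member with the HNF4 element CAAAGTCCA (reverse TGGACTTTG) in its promoter, 2.04% of 49 genes beside 0.555% of all genes. The element lies at chr17:85028308-85028316 on the plus strand and begins 39 bases before the start. The same window holds an AP-1 and an antioxidant response match, both beginning 140 bases before the start. The HNF4 element is shown in capitals within chr17:85028296-85028328.
Slc3a1: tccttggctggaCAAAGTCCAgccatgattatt
No such letters were found in the windows of Slc7a9. Another brush-border carrier of neutral amino acids, Slc6a19 (B0AT1), had 20 and 52 counts with ethanol and 2 and 3 with 4OHT at 2 weeks. That is 15.6-fold lower with a counting interval of 6.40 to 49.6 (adjusted p = 0.0459), and the call was lost without any of 3 libraries.

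Slc1a4 and Slc1a5 are the neutral exchangers of the SLC1 family. Slc1a4 (ASCT1, a carrier of serine, alanine and cysteine, chr11:20302180-20332713, minus strand) fell in 6 comparisons. It read 114 and 132 CPM with ethanol and 47.2 and 49.1 CPM with 4OHT at 2 weeks (-1.36 ± 0.14, adjusted p = 0.00895). At 48 h it read 92.6 and 83.7 with ethanol, 82.2 and 62.3 with ethanol and MRTX1133, 36.1 and 30.99 with 4OHT and 27.5 and 29.3 CPM with both. The deletion changes of -1.39 ± 0.17 (adjusted p = 0.00116) and, with inhibitor, -1.35 ± 0.17 (adjusted p = 0.00128) were close to the 2-week value, and the values for MRTX1133 were smaller (-0.29 ± 0.17 and -0.24 ± 0.17, neither called). In 3311 it fell from 253 and 272 to 67.3 and 93.4 CPM (-1.71 ± 0.18, adjusted p = 0.00109). In 1027B it read 109 and 129 in vehicle, 46.4 and 67.3 with trametinib (-1.07 ± 0.20, adjusted p = 0.0108) and 63.97 and 78.3 CPM with MRTX1133 (-0.74 ± 0.20, adjusted p = 0.0804). The trametinib call was lost without vehicle replicate 2 or trametinib replicate 1, at values from -1.36 to -0.82. In H358, SLC1A4 fell from 12.5 and 11.05 to 6.98 and 6.59 CPM (-0.79 ± 0.16, adjusted p = 0.00508). No H1651 comparison called SLC1A4, at 79.9 and 77.1 CPM in vehicle, 85.9 and 89.4 with trametinib, 66.95 and 70.7 without and 65.4 and 69.6 with doxycycline.

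Slc1a5 (ASCT2, the main sodium-dependent glutamine importer of many tumour lines) fell with trametinib in 3311, from 179 and 135 to 53.7 and 47.8 CPM (-1.63 ± 0.17, adjusted p = 0.00106). SLC1A5 fell in H358, from 250.3 and 249.9 to 91.7 and 98.1 CPM (-1.40 ± 0.10, adjusted p = 3.74e-05). Those drops were far larger than the gap between replicates. Slc1a5 also fell in 1027B with MRTX1133 (-0.50 ± 0.11, adjusted p = 0.0487) and in 3154 on deletion at 48 h (-0.52 ± 0.15, adjusted p = 0.0314). The latter 2 calls were lost in a fit of the 2 groups alone and when most single libraries were left out.

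The acidic SLC1 carriers take up glutamate and aspartate. SLC1A1 (EAAT3) rose with doxycycline in H1651, from 17.3 and 16.3 to 37.2 and 33.99 CPM (1.09 ± 0.10, adjusted p = 0.00521). Slc1a1 rose with trametinib in 1027B, from 1.07 and 2.92 to 9.44 and 7.70 CPM (2.11 ± 0.44, adjusted p = 0.0152), a call lost without trametinib replicate 1. SLC1A1 fell in H358, from 39.8 and 34.4 to 22.2 and 24.6 CPM (-0.67 ± 0.13, adjusted p = 0.00425). Of the exon bases of mouse Slc1a1, 31.9% lie opposite another gene. SLC1A2 (EAAT2, the main glutamate carrier of astrocytes) rose from very low counts. In H1651 it had 3 and 0 counts without and 74 and 39 with doxycycline, a ratio of 39.5 with a 95% counting interval of 13.2 to 194 (adjusted p = 0.0253). In H358 it had 1 and 1 counts in vehicle and 23 and 7 with trametinib, a ratio of 15.02 with an interval of 3.81 to 130 (adjusted p = 0.00335). Slc1a2 in 3154 with MRTX1133 had 3 and 4 counts with ethanol and 10 and 19 with 4OHT (1.93 ± 0.56, adjusted p = 0.0368), a call that DESeq2 did not make and that was lost without any of 6 libraries. Levels this low are under 3 CPM in every library of these 3 experiments.

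Slc7a1 (CAT1, which imports arginine and lysine alone, without a heavy chain) fell in 5 comparisons. In 3311 it went from 124 and 169 to 79.4 and 91.3 CPM (-0.78 ± 0.18, adjusted p = 0.015). In 1027B it read 163 and 157 in vehicle, 64.5 and 83.4 with trametinib (-1.11 ± 0.13, adjusted p = 0.00249) and 108 and 109.5 CPM with MRTX1133 (-0.56 ± 0.13, adjusted p = 0.059). In H358, SLC7A1 fell from 116 and 121 to 32.5 and 52.99 CPM (-1.48 ± 0.20, adjusted p = 0.000716). At 48 h in 3154, Slc7a1 read 259 and 196 with ethanol, 193 and 159.9 with ethanol and MRTX1133, 176 and 153 with 4OHT and 77.5 and 94.9 CPM with both. The ethanol group was above and the last group below all other libraries. Deletion with MRTX1133 changed it by -1.03 ± 0.19 (adjusted p = 0.00574), and MRTX1133 after 4OHT by -0.93 ± 0.19 (adjusted p = 0.0352). The first was lost without replicate 1 of 4OHT with MRTX1133 and the second without any of 5 libraries. At 2 weeks it read 173 and 124 and 137 and 111 CPM, and in H1651 SLC7A1 read 103 and 125 in vehicle, 98.9 and 100.5 with trametinib, 114 and 109.7 without and 113 and 109 with doxycycline, none of these called.

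In the SLC6 family, Slc6a9 (GlyT1, the glycine carrier, chr4:117834506-117875198, plus strand) fell in 6 comparisons, all of them in mouse cultures. It read 68.4 and 76.8 CPM with ethanol and 39.4 and 44.3 with 4OHT at 2 weeks (-0.79 ± 0.14, adjusted p = 0.0284). At 48 h it read 130.3 and 86.6 with ethanol, 93.02 and 62.2 with ethanol and MRTX1133, 40.5 and 39.6 with 4OHT and 30.8 and 33.2 CPM with both, with deletion changes of -1.44 ± 0.24 (adjusted p = 0.00407) and -1.28 ± 0.24 (adjusted p = 0.00688). In 3311 it fell from 84.8 and 86.7 to 42.4 and 38.8 CPM (-1.08 ± 0.13, adjusted p = 0.00161). In these organoids the libraries given 4OHT, and in 3311 those given trametinib, were below their matching controls. In 1027B it read 84.8 and 89.7 in vehicle, 45.6 and 54.8 with trametinib (-0.80 ± 0.14, adjusted p = 0.00796) and 46.7 and 55.03 CPM with MRTX1133 (-0.78 ± 0.14, adjusted p = 0.0255). Human SLC6A9 stayed under 10 CPM, at 8.88 and 6.72 in H358 vehicle, 7.89 and 8.01 with trametinib there, 2.88 and 4.30 in H1651 vehicle and 3.39 and 4.41 with trametinib. In the doxycycline experiment it read 2.76 and 4.66 without and 3.34 and 5.69 with the drug. Only the 3311 call and the 48 h deletion call without inhibitor held under every alternative. Of the exon bases of Slc6a9, 30.2% lie opposite other genes.

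Slc6a14 (ATB0,+, which takes up neutral and cationic amino acids with sodium and chloride, chrX:21714896-21742355, plus strand) rose in all 4 comparisons of the 48 h experiment. It read 22.1 and 20.2 CPM with ethanol, 81.7 and 74.4 with ethanol and MRTX1133, 115 and 115 with 4OHT and 178 and 187 with both. The 4 groups were ordered without overlap. Deletion raised it by 2.44 ± 0.13 (adjusted p = 8.72e-05) without inhibitor and by 1.22 ± 0.12 (adjusted p = 0.000494) with it. MRTX1133 raised it by 1.88 ± 0.12 (adjusted p = 0.00539) after ethanol, the 1 transporter called there, and by 0.66 ± 0.12 (adjusted p = 0.0266) after 4OHT. The interaction of -1.22 ± 0.17 (adjusted p = 0.541) did not pass in edgeR but was -1.19 with an adjusted p of 0.000187 in DESeq2. Both deletion calls held under every alternative. The MRTX1133 call after ethanol was lost without replicate 1 of that treated group or in a fit of the 2 groups alone, and the one after 4OHT without any of 4 libraries. At 2 weeks it read 39.8 and 24.3 CPM with ethanol and 55.9 and 44.3 with 4OHT (0.65 ± 0.27, adjusted p = 0.18). In 1027B, Slc6a14 had 2 and 0 counts in vehicle, 18 and 18 with trametinib and 11 and 8 with MRTX1133. The trametinib ratio of 16.04 had a counting interval of 4.13 to 137. The call was lost without vehicle replicate 2 or either trametinib library, and the fitted change ranged from 3.04 to 7.17 as single libraries were left out. SLC6A14 had 0 and 0 counts in H358 vehicle, 2 and 0 with trametinib, and 0 and 0 and 0 and 0 in the H1651 trametinib experiment.

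Slc6a8, the creatine carrier, rose in 3311 from 14.6 and 15.9 to 81.6 and 77.7 CPM (2.38 ± 0.14, adjusted p = 0.000339). In 1027B it read 52.8 and 44.8 in vehicle, 102 and 91.4 with trametinib (0.98 ± 0.13, adjusted p = 0.00318) and 76.5 and 68.9 CPM with MRTX1133 (0.58 ± 0.12, adjusted p = 0.0454), the last of these lost without any 1 of the 6 libraries. Slc6a6, the taurine carrier, rose in 3311 from 179 and 205 to 579 and 533 CPM (1.53 ± 0.15, adjusted p = 0.000897). The same gene fell elsewhere, with SLC6A6 in H358 going from 223 and 205 to 117 and 127 CPM (-0.81 ± 0.11, adjusted p = 0.000549) and Slc6a6 on deletion at 2 weeks from 192 and 245 to 130.3 and 129.6 CPM (-0.75 ± 0.15, adjusted p = 0.0397). The 2-week call was lost without ethanol replicate 2 or either 4OHT library. It was not called in 1027B, at 263 and 270.2 CPM in vehicle and 268 and 249 CPM with trametinib. Slc6a15 (B0AT2, a branched-chain amino acid and proline carrier best known from neurons) fell on deletion at 2 weeks from 15.9 and 12.5 to 2.56 and 3.04 CPM (-2.34 ± 0.25, adjusted p = 0.0106) and rose in 3311 from 8.32 and 5.54 to 29.1 and 20.5 CPM (1.84 ± 0.28, adjusted p = 0.00347). Of 7 neuronal and neuroendocrine markers, the 3 listed summed to 0.791 and 0.449 CPM with ethanol and 1.81 and 3.52 CPM with 4OHT at 2 weeks, with Insm1 called higher. In 3311, 3 listed markers summed to 2.27 and 1.55 CPM in vehicle and 1.40 and 0.989 CPM with trametinib. Their part in the Slc6a15 changes was not tested. At 48 h it was not called, and Slc6a15 read 18.5 and 11.3 with ethanol and 10.01 and 10.5 CPM with 4OHT (-0.54 ± 0.25, adjusted p = 0.133).

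Induction of HNF4A in H1651 also raised a pair of SLC6 carriers. SLC6A12 (BGT1, the betaine and GABA carrier) had 11 and 13 counts without and 109 and 101 with doxycycline, or 0.453 and 0.496 against 4.28 and 4.46 CPM (3.19 ± 0.27, adjusted p = 0.00395). SLC6A4, the serotonin carrier, had 2 and 0 and 36 and 21 counts, a ratio of 29.9 with a counting interval of 7.90 to 253 (adjusted p = 0.0433). With SLC1A1, SLC1A2 and SLC7A7 described above, these are the 5 calls of that comparison. No transporter was called lower there. The fibroblast markers summed to 664 and 759 CPM without and 413 and 456 CPM with doxycycline, and their part in these changes was not tested. The SLC6A4 call was lost without control replicate 2 or doxycycline replicate 1, and the other 4 held under every alternative that kept them.

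Slc36a1 (PAT1, which moves small amino acids out of lysosomes with protons, chr11:55204350-55236330, plus strand) rose in 5 comparisons. On deletion it went from 7.06 and 5.52 to 13.4 and 13.5 CPM at 2 weeks (1.09 ± 0.22, adjusted p = 0.0374). At 48 h it read 6.06 and 5.33 with ethanol, 6.66 and 6.19 with ethanol and MRTX1133, 14.2 and 12.9 with 4OHT and 14.6 and 15.7 CPM with both, with deletion changes of 1.25 ± 0.16 (adjusted p = 0.0013) and 1.24 ± 0.16 (adjusted p = 0.00127). The interaction of deletion and MRTX1133 was -0.02 ± 0.22 (adjusted p = 1). In 3311 it rose from 6.87 and 10.9 to 25.5 and 27.05 CPM (1.57 ± 0.25, adjusted p = 0.00415), and SLC36A1 in H358 from 15.1 and 16.7 to 22.3 and 20.8 CPM (0.44 ± 0.13, adjusted p = 0.0282). In 1027B it read 18.6 and 14.2 in vehicle, 26.7 and 18.05 with trametinib and 19.02 and 13.8 CPM with MRTX1133. No H1651 comparison called SLC36A1, at 29.1 and 36.1 in vehicle, 30.3 and 28.96 with trametinib, 33.1 and 32.9 without and 31.6 and 32.7 CPM with doxycycline. The 2-week and H358 calls were each lost without any of 3 libraries. Slc36a4, a relative of Slc36a1, rose on deletion at 48 h (0.73 ± 0.21, adjusted p = 0.0326), and SLC36A4 fell in H358 (-0.45 ± 0.13, adjusted p = 0.0196), calls lost without any of 4 and any of 3 libraries.

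Among the SLC38 carriers, calls with trametinib were 4 higher and 2 lower of 8 tested in H358, beside 46.8% of all genes called. They were 2 higher of 5 in 1027B, beside 26.7%, and 1 higher of 6 in 3311, beside 39.0% and so below the background. Slc38a9, the lysosomal arginine sensor of mTORC1, rose with trametinib in 1027B from 6.73 and 8.77 to 16.9 and 12.5 CPM (0.93 ± 0.22, adjusted p = 0.0232). On deletion with MRTX1133 it rose from 7.35 and 5.67 to 10.4 and 9.69 CPM (0.63 ± 0.18, adjusted p = 0.036), and SLC38A9 rose in H358 (0.63 ± 0.13, adjusted p = 0.00531). SLC38A7, another lysosomal carrier, which releases glutamine and asparagine, rose in H358 from 14.1 and 15.3 to 37.4 and 42.9 CPM (1.45 ± 0.13, adjusted p = 0.000114). Slc38a7 rose in 1027B with trametinib (0.79 ± 0.13, adjusted p = 0.00692) and fell on deletion at 2 weeks (-0.70 ± 0.14, adjusted p = 0.0408). SLC38A10 rose in H358 from 113 and 125 to 212 and 206 CPM (0.81 ± 0.10, adjusted p = 0.000486), and Slc38a10 in 3311 (0.59 ± 0.13, adjusted p = 0.0126). SLC38A4, a carrier best known from liver, rose in H358 from 0.803 and 0.627 to 1.63 and 2.16 CPM (1.38 ± 0.31, adjusted p = 0.00789). Of the mouse calls in this paragraph none held under every alternative, and the 4 rises in H358 did.

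SLC38A2 (SNAT2) and SLC38A1 (SNAT1) carry glutamine at the cell surface. In H358 they changed by -0.67 ± 0.10 (adjusted p = 0.0013) and -0.56 ± 0.10 (adjusted p = 0.00229). In 3154 at 48 h, Slc38a2 read 389.6 and 385 CPM with ethanol and MRTX1133, 417 and 411 with 4OHT and 276 and 292 with both. The last group was below the others, with changes of -0.45 ± 0.11 (adjusted p = 0.0188) for deletion and -0.54 ± 0.11 (adjusted p = 0.0354) for MRTX1133. Slc38a6 rose on deletion at 48 h, from 5.34 and 5.62 to 10.3 and 9.64 CPM (0.86 ± 0.17, adjusted p = 0.00684) and with MRTX1133 by 0.54 ± 0.16 (adjusted p = 0.0408). Slc38a11 rose on deletion from 25 and 18 to 56 and 59 counts (1.39 ± 0.29, adjusted p = 0.00893) and fell with MRTX1133 after 4OHT, to 21 and 24 counts (-1.49 ± 0.28, adjusted p = 0.0311). Those mouse calls were each lost without 1 or more single libraries.

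Slc38a1 itself differed between the 2 experiments on the same organoid line. It read 144 and 232 CPM with ethanol at 2 weeks and 0.379 and 0.126 CPM with ethanol at 48 h, where it had 9 and 3 counts. In 3311 vehicle it read 366 and 524 CPM, and the 1027B table holds no row of that name. The tables were deposited separately, 96.8% of the gene identifiers of the 48 h table were in GENCODE M21 beside 99.8% of the 2-week table, and no test across tables was made. Its call on deletion at 48 h (1.80 ± 0.49, adjusted p = 0.0265) therefore rests on 9 and 3 against 20 and 23 counts and was lost without any of 5 libraries. At 2 weeks it read 95.5 and 117 CPM with 4OHT (-0.82 ± 0.25, adjusted p = 0.0985). DESeq2 called that fall with an adjusted p of 0.0201, as did edgeR with a replicate block, and the main edgeR fit did not.

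Slc43a2 (LAT4, which lets large neutral amino acids leave or enter down their gradient, chr11:75531694-75577575, plus strand) was called in 6 comparisons, rising in 4 and falling in 2. On deletion at 48 h it read 5.01 and 6.21 CPM with ethanol, 9.76 and 9.57 with ethanol and MRTX1133, 22.6 and 26.2 with 4OHT and 30.2 and 35.4 with both, changes of 2.12 ± 0.17 (adjusted p = 0.00029) and 1.76 ± 0.17 (adjusted p = 0.000433). In 3311 it rose with trametinib from 6.17 and 8.68 to 22.3 and 17.7 CPM (1.43 ± 0.25, adjusted p = 0.00573), and SLC43A2 in H358 from 3.70 and 5.28 to 9.97 and 15.1 CPM (1.47 ± 0.26, adjusted p = 0.00231). In 1027B the direction was the reverse. Slc43a2 there read 43.05 and 36.02 in vehicle, 18.6 and 17.3 with trametinib (-1.14 ± 0.14, adjusted p = 0.00254) and 20.5 and 20.7 CPM with MRTX1133 (-0.94 ± 0.14, adjusted p = 0.0164), the last lost without any of 3 libraries. At 2 weeks it read 11.9 and 7.64 with ethanol and 25.8 and 19.6 CPM with 4OHT (1.21 ± 0.28, adjusted p = 0.0516), without overlap. It was called by DESeq2 (adjusted p = 0.0017) and by edgeR with a replicate block, and not by the main edgeR fit. In H1651, SLC43A2 read 11.2 and 14.7 in vehicle, 11.4 and 14.2 with trametinib, 12.7 and 21.5 without and 22.6 and 31.3 CPM with doxycycline.

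In 1027B, MRTX1133 at 20 nM and trametinib at 10 nM could be set side by side against 1 shared vehicle, though their doses differ. The direct test between them called no transporter in edgeR, beside 0.0% of all genes, with 7 rows at an unadjusted p under 0.05 and 3 calls in DESeq2. The 1027B replicates deviated together, with correlations of 0.360, 0.552 and 0.604 over the 3 pairs of groups. With the replicate number as a block, 8 rows were called in the direct test, or 26.7% beside 14.1% of all genes. Slc7a11, Slc7a5, Slc7a1 and Slc1a4 were then higher with MRTX1133 than with trametinib, by 1.01 ± 0.07 (adjusted p = 0.000616) and 0.84 ± 0.14 (adjusted p = 0.00887) for the first 2. Slc7a7, Slc6a8, Slc38a7 and Slc36a1 were lower with MRTX1133, with differences of -0.84 ± 0.15 (adjusted p = 0.01) for Slc7a7 and -0.41 ± 0.07 (adjusted p = 0.0112) for Slc6a8. For all 8 the MRTX1133 level lay between vehicle and trametinib, or near vehicle in the case of Slc36a1. Summed ERK output genes read 1556 and 1653 CPM in vehicle, 1035 and 1088 with MRTX1133 and 537 and 805 with trametinib, and their part in these differences was not tested.

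The block raised the number of MRTX1133 calls in 1027B from 8 to 15, beside 24.1% of all genes. It added rises of Slc1a1 (1.97 ± 0.36, adjusted p = 0.00615), Slc3a1 (1.20 ± 0.32, adjusted p = 0.0292), Slc38a7 (0.34 ± 0.10, adjusted p = 0.0352) and Slc38a9 (0.81 ± 0.20, adjusted p = 0.0216). It also added falls of Slc1a4 (-0.74 ± 0.09, adjusted p = 0.000873), Slc7a1 (-0.56 ± 0.10, adjusted p = 0.00644) and Slc7a6 (-0.38 ± 0.10, adjusted p = 0.032). For trametinib it added rises of Slc36a1 (0.44 ± 0.12, adjusted p = 0.0168) and Slc38a10 (0.29 ± 0.07, adjusted p = 0.00859) and a fall of Slc7a6os (-0.44 ± 0.09, adjusted p = 0.00489), giving 18 calls beside 44.9% of all genes.

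Genes of the wider amino acid response were counted as well. A list of 33 ATF4 response genes, which shares no gene with the transporters and was chosen with earlier results of these data known, was mostly called lower on deletion of Hnf4a. At 48 h, 32 of 33 were called lower and none higher, where 15.7% of all genes were called lower, with a median log2 change of -1.55 beside 0.01 over all genes. With MRTX1133 in both arms it was again 32 of 33 (median -1.44) beside 14.5% of all genes, and at 2 weeks 19 of 33 (median -0.88) beside 5.78%. The 2-week count was 4 without 4OHT replicate 1 and 5 without 4OHT replicate 2, with medians of -0.86 and -0.78. Asns, which makes asparagine, changed by -2.40 ± 0.16 at 48 h, and Atf4 itself by -1.89 ± 0.14. Trametinib lowered 29 of 33 in 3311 (median -1.11), 22 of 33 in 1027B with 2 higher (median -0.66), and 27 of 32 in H358 (median -0.87). The shares of all genes called lower there were 19.6%, 13.2% and 23.2%. In 1027B the falls numbered 11 if trametinib replicate 1 was left out and 13 if vehicle replicate 2 was. In H1651 none was called with trametinib (median -0.0039), and doxycycline raised PCK2 and TRIB3 (median 0.22), beside 1.04% of all genes called higher. With the replicate block, doxycycline raised 26 of 33 and lowered 1, beside 17.6% of all genes called. Trametinib in H1651 then raised 4 and lowered 1, beside 10.3%. MRTX1133 lowered 8 of 33 in 1027B (median -0.49), 4 in 4OHT-treated 3154 with 1 higher (median -0.26) and none in ethanol-treated 3154 (median -0.31), beside 3.26%, 2.54% and 0.0323% of all genes. In 1027B that count was 0 without either vehicle library or MRTX1133 replicate 1, 1 without MRTX1133 replicate 2, 28 with the replicate block, 13 in DESeq2 and 5 in a fit of the 2 groups alone. After 4OHT it was 0 without any 1 of the 4 libraries compared, 8 without either ethanol control library, 7 in DESeq2 and 14 in a fit of the 2 groups alone. Several of these comparisons share control libraries, so their values are given side by side only.

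**Figure D5:**
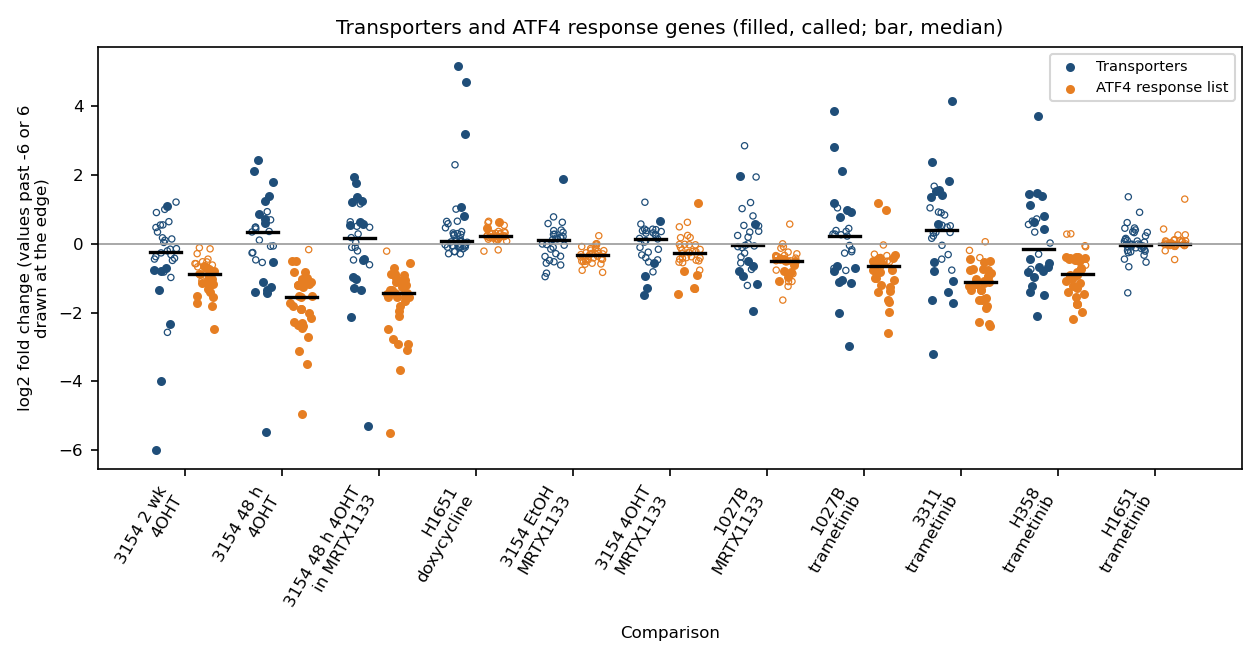
Log2 fold change of each tested transporter (blue) and each gene of the ATF4 response list (orange) in the 11 comparisons, with filled points for calls, black bars for medians, and values past -6 or 6 drawn at the edge. Orange points lie below 0 as a group on Hnf4a deletion and with trametinib in 3311, 1027B and H358, while blue points spread to both sides. Both sets gather near 0 with trametinib in H1651.

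Other carriers of amino acids and peptides, 29 genes outside these families, were counted in the same way. With trametinib, 12 of 23 rose and 3 fell in 3311, 8 of 22 rose and 3 fell in 1027B, and 7 of 19 rose and 4 fell in H358. Of all genes, 19.4% rose and 19.6% fell in 3311, 13.5% and 13.2% in 1027B, and 23.5% and 23.2% in H358. Ctns, the lysosomal cystine exporter, rose by 1.47 ± 0.24 in 3311 and 1.24 ± 0.21 in 1027B, and CTNS by 0.86 ± 0.17 in H358. Slc17a5, the lysosomal sialic acid carrier, rose by 0.77 ± 0.14 in 3311 and 0.89 ± 0.12 in 1027B. On deletion, 2 rose and 2 fell of 21 at 2 weeks, and 5 rose and 2 fell of 22 at 48 h, beside 9.81% and 31.0% of all genes called. Among 33 genes through which mTORC1 senses amino acids, trametinib raised 8 and lowered 3 of 32 in 3311, raised 7 and lowered none of 32 in 1027B, and raised 14 and lowered 6 of 33 in H358. Those sums, 11 of 32, 7 of 32 and 20 of 33, stood beside 39.0%, 26.7% and 46.8% of all genes called, so the first 2 shares were below the background. Of 15 cystine and glutathione genes, deletion lowered 5 at 2 weeks and 6 at 48 h, with 1 rise at 48 h, beside 9.81% and 31.0% of all genes called, and trametinib lowered 4 with 1 rise in 3311, 4 of 14 in 1027B, and 7 with 2 rises in H358. In 3311 that was 5 of 15 called beside 39.0% of all genes, in 1027B 4 of 14 beside 26.7%, and in H358 9 of 15 beside 46.8%.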

How the data were processed

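RNA was sequenced from 34 libraries of mouse and human lung adenocarcinoma cultures as paired-end, poly(A)-selected directional libraries, per the labels' protocols. The authors deposited 7 tables of whole-number counts per gene, and per the submitters' processing notes they used cutadapt 3.5, STAR 2.7.6a and featureCounts 1.6.3. The build behind each table and the strand setting of the counting are not given in the sources used here. Each library held 19692517 to 45284286 counts.

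Groups came from the labels, and 1 item of the mouse genotypes is not reported here. Each table was fitted on its own with edgeR 4.0.16 in R 4.3.3 (filterByExpr, TMM scaling, quasi-likelihood F-test on group means, no block), with Benjamini-Hochberg adjustment over all genes tested and calls at 0.05. SE was taken as the log2 change divided by the square root of F. With 2 against 2 libraries, an exact permutation test of 1 gene could not go below p = 0.333. On simulated counts with 200 genes changed 3-fold, the fit recovered 78% to 92.5% of them, depending on the table, and 3.59% to 15.2% of its calls were false. The changed genes were drawn only from those above a minimum mean count, and no pairing of replicates was simulated. These shares therefore do not cover calls on a few counts or comparisons where many genes changed.

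Genes are named if called in any comparison, and values in every library are given for the 10 transporters called in 5 or more comparisons and for the largest changes. Exon lengths and overlaps came from GENCODE M21 and promoters from RefSeq. The members, gene lists and markers were chosen with earlier results of these data known. Alternatives were DESeq2 1.42.0, RLE size factors, no count filter, at least 10 counts in every library, a replicate block, only the 2 groups compared, and each library left out. Deviations of same-numbered replicates were compared as a check of pairing; all 3 pairs of groups in 1027B gave correlations above 0.1 (0.360, 0.552 and 0.604).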

Additional observations from a re-analysis of the deposited data

Results flagged for a closer look

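Some transporters were called in opposite directions under trametinib in different lines. These lines were counted in separate tables and given different doses, and the differences themselves were not tested. SLC43A2 changed by 1.43 in 3311 and by -1.14 in 1027B, a difference of 2.57 on the log2 scale. Between 1027B and H358, where SLC43A2 changed by 1.47, the difference was -2.61. SLC6A6 changed by 1.53 in 3311 and by -0.81 in H358, a difference of 2.34. SLC1A1 changed by 2.11 in 1027B and by -0.67 in H358, a difference of 2.78. SLC7A6 changed by -0.70 in 1027B and by 1.14 in H358, a difference of -1.84. In each case every treated library lay on the called side of every vehicle library of its line.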

How the results depend on the processing

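An alternative that gave no value for a call was not counted as a loss of it. The filter of 10 counts in every library gave a value for 96 of the calls. All 109 called values kept their direction under every alternative that gave a value. Of them, 97 stayed past the threshold under every alternative that kept all libraries, and 59 also did so without each library in turn.

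The replicate block raised the number of calls from 8 to 17 for deletion at 2 weeks, from 5 to 14 for doxycycline, from 8 to 15 for MRTX1133 in 1027B, from 0 to 8 for MRTX1133 against trametinib, and from 0 to 11 for trametinib in H1651. The block called 31.5% of all genes at 2 weeks, 17.6% with doxycycline and 10.3% with trametinib in H1651. In H1651 with trametinib it called SLC1A1, SLC38A4, SLC7A7 and SLC7A8 higher and SLC1A5, SLC1A7, SLC38A2, SLC6A6, SLC7A1, SLC7A11 and SLC7A6 lower. At 2 weeks it added falls of Slc1a5, Slc38a1, Slc38a2, Slc3a1, Slc3a2, Slc7a11 and Slc7a5 and rises of Slc43a2 and Slc6a14. With doxycycline it added rises of SLC1A5, SLC38A3, SLC3A2, SLC43A2, SLC7A5 and SLC7A9 and falls of SLC36A4, SLC38A2 and SLC6A6. The titles give same-numbered samples a shared replicate number and no shared source, in 1027B as elsewhere. The block in 1027B thus also rests on the data. Each 2-group table has only 1 pair of groups. There the deviations of same-numbered replicates correlated at 0.541 at 2 weeks, 0.541 with doxycycline, 0.202 in 3311, 0.472 in H358 and 0.807 in H1651, as a hint from the data and not the design. At 48 h the correlations ran from -0.49 to 0.76. DESeq2 gave 3 calls for MRTX1133 against trametinib, 4 for MRTX1133 after ethanol, 1 for trametinib in H1651 and 1 for the interaction, beside 5.66%, 2.42%, 0.241% and 0.296% of all genes with an adjusted p. Beyond those named in the report, DESeq2 made calls that the main edgeR fit did not. They were Slc38a2 lower on deletion at 2 weeks, Slc43a2 higher with MRTX1133 after ethanol and Slc6a19 higher with trametinib in 3311. With MRTX1133 in 1027B they were Slc1a1 and Slc38a9 higher and Slc1a4 and Slc7a1 lower. Of these calls, the replicate block also made all but that of Slc43a2. A fit of the 2 groups alone gave 14 calls for MRTX1133 after 4OHT, beside 26.5% of all genes, and 0 after ethanol, beside 0.0%. A minimum of 10 counts in every library gave 3 for doxycycline, beside 1.18%.

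Leaving out each library in turn gave 3 to 13 calls for deletion at 2 weeks, 9 to 15 at 48 h and 6 to 17 at 48 h with MRTX1133. It gave 15 to 19 for trametinib in 3311, 7 to 14 in 1027B, 17 to 20 in H358 and 0 to 1 in H1651. For MRTX1133 it gave 2 to 7 in 1027B, 0 to 2 after ethanol and 0 to 7 after 4OHT. For doxycycline it gave 4 to 5, and for MRTX1133 against trametinib and the interaction 0. A lone library in a group is assumed to vary like the others of its table.

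With 2 libraries a group, a missed call does not show that a level did not change, and rows of a few counts bear wide intervals.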
